A study of Mus musculus with 12 samples.

Results

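The endoplasmic reticulum (ER) chaperone genes examined here are Herpud1, Hspa5, Xbp1, Dnajb9, Sdf2l1, Hyou1, Creld2, Pdia4, Hsp90b1 and Calr. They were found by gene name among the non-control probes of the arrays: 11 of 39429 distinct probes carry 1 of these names, and they give 10 of the 24149 genes that were tested. All 10 genes passed the filter on dim probes, and each of the 11 probes was well above background on all 12 arrays. The samples were neural stem cells of the mouse, dissected from embryonic cerebral cortex at stage E12.5. JMJD3 knockdown cells stably carried an shRNA against JMJD3, and control cells stably carried an shRNA of random sequence. JMJD3, encoded by Kdm6b, is a demethylase of histone H3 lysine 27. The labels name 1 shRNA against JMJD3 (sh2 JMJD3), so an effect of JMJD3 loss and an effect of that shRNA sequence or cell line cannot be told apart. The groups were JMJD3 shRNA with transforming growth factor beta (TGFb), control shRNA with TGFb, JMJD3 shRNA with vehicle and control shRNA with vehicle, with 3 samples each, and TGFb was given at 5 ng/ml for 2.5 h. The series asks whether JMJD3 is needed for the response of genes to TGFb. For the chaperone genes, the design gives the effect of the knockdown under each treatment, the effect of TGFb in each line, and the difference between the TGFb responses.

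Secreted and membrane proteins fold in the ER with the help of chaperones, lectins and enzymes that form disulfide bonds. When unfolded proteins accumulate there, the sensors IRE1, PERK and ATF6 start the unfolded protein response. ATF6 and the XBP1 protein made after IRE1 splices its mRNA switch on genes of chaperones and of ER-associated degradation, the route by which misfolded proteins leave the ER to be destroyed. PERK slows translation and raises ATF4, which switches on stress genes such as Ddit3 (CHOP), Trib3 and Chac1 and is also reached by other stresses, among them shortage of amino acids.

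Each sample was hybridised to a 1-colour array, and a level is the log2 of the processed signal minus the array's 75th percentile, so that 0 marks that percentile and a difference of 1 is a 2-fold change. Levels are compared between groups for 1 probe at a time, never between probes. The 75th percentile of the processed signal was between 3175 and 4462, and from 70.3% to 78.4% of probes were well above background. Whether replicates were separate cultures is not in the labels, so the p-values cover the spread between samples only, and that spread may be technical. Because RNA was taken from whole cultures, a lower share of a cell type and less RNA per cell cannot be told apart. All 8 neural stem cell and radial glia markers were kept, with mean log2 levels of 2.31 in JMJD3 shRNA cells with TGFb, 2.14 in control cells with TGFb, 2.18 in JMJD3 shRNA cells with vehicle and 2.05 in control cells with vehicle. With vehicle, the knockdown raised 3 and lowered 2 of these 8 markers, and 4 of the 6 oligodendrocyte lineage markers passed the test, 1 higher and 3 lower. Of the kept markers of other cells, 2 of 5 of neurons (1 higher and 1 lower), 1 of 4 of astrocytes (higher), 1 of 4 of microglia (higher), 2 of 4 of fibroblasts (1 higher and 1 lower) and 0 of 4 of endothelium passed in that comparison. The part of such shifts in the results below was not tested. Aif1 of microglia and Cdh5 of endothelium were not well above background on any array.

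Kdm6b, the target of the shRNA, had log2 levels of -2.01, -2.12 and -2.01 in JMJD3 shRNA cells with TGFb, against -0.67, -0.69 and -0.59 in control cells with TGFb. With vehicle its levels were -1.95, -1.90 and -1.96 in JMJD3 shRNA cells, against -0.84, -0.73 and -0.75 in control cells. The labels and the target thus go together on every array: Kdm6b was lowered to 0.38 of the control level with TGFb (log2 change -1.40 ± 0.05 SE, limma adjusted p = 2.97e-08) and to 0.447 of it with vehicle (-1.16 ± 0.05, adjusted p = 1.08e-07). All p-values called adjusted come from 1 limma fit over all 24149 genes, n = 3 per group.

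Of the 10 genes, 9 have a promoter window in the RefSeq table (mouse build GRCm38.p6), which covers 250 bases before the start site and 49 after it. Each window was searched on both strands, with no mismatch, for the motifs of the unfolded protein response. The ER stress response element (ERSE: CCAAT, 9 bases of any kind, CCACG) is bound by ATF6 with the factor NF-Y and was found in 39 of 32851 windows (0.119%). It occurred in the windows of Hspa5, Creld2, Hsp90b1 and Calr, that is in 4 of the 9 genes. ERSE-II (ATTGG, 1 base of any kind, CCACG) was found in 12 windows (0.0365%), among them that of Herpud1. The amino acid and ATF4 response motif searched as CARE (TGATGNAA) was found in 1304 windows (3.97%), and Herpud1 was the 1 member with it. The UPR element (UPRE, TGACGTGG) was found in 222 windows (0.676%) and in 0 of the 9. No 2 of these matches overlap in a member's window. The stretches below are shown because they let the 5 promoters with a match be set beside the changes of their genes. Sequences run 5′ to 3′ on the strand of the gene, and capitals mark the fixed bases of each match, read as written or as the reverse complement.
Herpud1, chr8:94386305-94386399, plus strand, CARE then ERSE-II: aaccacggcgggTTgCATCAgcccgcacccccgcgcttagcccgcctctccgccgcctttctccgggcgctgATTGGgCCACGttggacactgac
Hspa5, chr2:34772013-34772055, plus strand, ERSE: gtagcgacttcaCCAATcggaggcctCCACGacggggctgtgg
Creld2, chr15:88819508-88819550, plus strand, ERSE: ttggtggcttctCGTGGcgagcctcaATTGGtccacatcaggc
Hsp90b1, chr10:86705521-86705668, minus strand, ERSE found at 2 places: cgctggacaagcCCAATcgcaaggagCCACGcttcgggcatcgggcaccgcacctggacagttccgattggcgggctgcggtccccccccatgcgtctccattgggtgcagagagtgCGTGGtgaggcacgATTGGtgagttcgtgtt
Calr, chr8:84847063-84847105, minus strand, ERSE: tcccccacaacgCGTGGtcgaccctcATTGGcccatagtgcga
In the Herpud1 window the CARE match lies at bases -112 to -105 from the start site and the ERSE-II match at -52 to -42. The ERSE of Hspa5 lies at -65 to -47, that of Creld2 at -126 to -108, that of Calr at -162 to -144, and those of Hsp90b1 at -212 to -194 and -107 to -89. The windows of Pdia4, Sdf2l1, Dnajb9 and Xbp1 held 0 matches to these letters. A match is a description of the sequence and says nothing of binding in these cells.

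**Figure D1:**
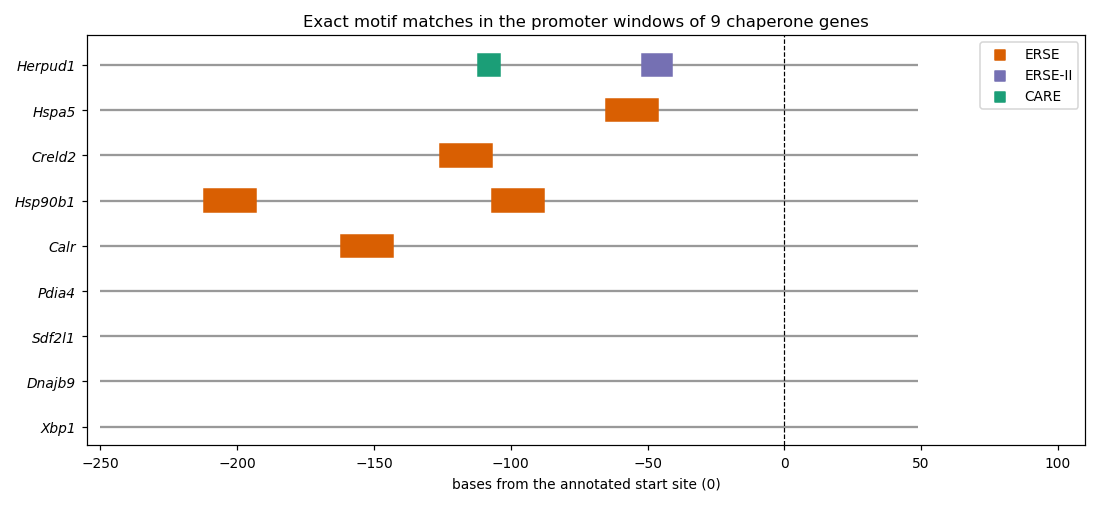
Exact motif matches in the promoter windows of the 9 genes with a window. The x axis gives bases from the annotated start site (0, dashed line), each grey line is 1 window and each block 1 match. Hsp90b1 holds 2 ERSE matches, Hspa5, Creld2 and Calr 1 each, and Herpud1 an ERSE-II and a CARE match.

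Knockdown raised some of the chaperone genes, and the change of the others did not pass the test. With vehicle, 5 of the 10 genes passed the test, all 5 of them higher in JMJD3 shRNA cells, where 27.8% of all tested genes passed (3017 higher and 3694 lower). That excess of lower calls depends on the scaling, with 2069 higher and 1885 lower when arrays were scaled on their median. With vehicle the change was above 0 for all 10 genes, where 47.1% of all tested genes were above 0. For 8 of the 10, Xbp1 and Hsp90b1 excepted, every knockdown array lay above every control array. The share of all genes so separated was not counted, and Sdf2l1, Hyou1 and Calr, among the 8, did not pass. Herpud1 was 2.04 times the control level, Dnajb9 1.84 times, Pdia4 1.26 times, Creld2 1.17 times and Hspa5 1.16 times. With TGFb, 3 of the 10 passed, all 3 higher, where 28.9% of all tested genes passed (2891 higher and 4086 lower). Herpud1, Dnajb9 and Hspa5 passed under both treatments. The median log2 change of the 10 was 0.10 with TGFb, against -0.01 for all tested genes, and 0.20 with vehicle, against -0.02. With the slide as a fixed block, 5 members were called with TGFb and 7 with vehicle. The shares of all genes above come from the fit without a block, so these 2 counts cannot be read against them.

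Herpud1 encodes an ER membrane protein of the degradation complex that ubiquitin ligase HRD1 forms, and it had the largest change of the 10. Its probe lies at mm9 chr8:96919117-96919176. Its log2 levels were 0.89, 1.10 and 1.28 in JMJD3 shRNA cells with TGFb, against 0.00, -0.06 and 0.28 in control cells with TGFb. With vehicle they were 1.02, 0.78 and 0.85 in JMJD3 shRNA cells, against -0.15, -0.02 and -0.26 in control cells. All 6 knockdown arrays lay above all 6 control arrays, and the arrays of the 2 treatments overlapped within each line. The log2 change with knockdown was 1.02 ± 0.11 with TGFb (SE, adjusted p = 5.88e-05) and 1.03 ± 0.11 with vehicle (adjusted p = 5.47e-05). Within slides holding both lines it was 0.96 and 0.91 with TGFb, and 1.17, 0.81 and 1.11 with vehicle. The 4 group means ran from 1.09 ± 0.19 (SD) in JMJD3 shRNA cells with TGFb through 0.89 ± 0.12 in JMJD3 shRNA cells with vehicle and 0.07 ± 0.18 in control cells with TGFb to -0.14 ± 0.12 in control cells with vehicle. In this order the arrays overlap between neighbouring treatments of 1 line, and they do not overlap between the lines.

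Dnajb9 (ERdj4) is a co-chaperone that guides misfolded proteins bound by Hspa5 to degradation. It has 2 probes, and the brighter, at mm9 chr12:45307313-45307372, stands for the gene. Its log2 levels were -0.37, -0.37 and -0.27 in JMJD3 shRNA cells with TGFb, against -1.17, -1.13 and -0.98 in control cells with TGFb. With vehicle they were -0.15, -0.24 and -0.24 in JMJD3 shRNA cells, against -1.06, -1.04 and -1.18 in control cells. The lines were again apart on all arrays, with a log2 change of 0.75 ± 0.06 with TGFb (adjusted p = 7.69e-06) and 0.88 ± 0.06 with vehicle (adjusted p = 2.06e-06). The other probe gave 0.74 ± 0.08 with TGFb (adjusted p = 4.26e-05) and 0.76 ± 0.08 with vehicle (adjusted p = 3.44e-05). Within slides the change of the brighter probe was 0.76 and 0.65 with TGFb, and 0.91, 0.80 and 0.94 with vehicle. The group means were -0.21 ± 0.06 (SD) in JMJD3 shRNA cells with vehicle, -0.34 ± 0.06 in JMJD3 shRNA cells with TGFb, and -1.09 in control cells under each treatment (SD 0.10 with TGFb and 0.08 with vehicle).

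Hspa5 (BiP) is the ATP-driven chaperone of the ER lumen that also holds the stress sensors inactive. Its log2 levels were 5.74, 5.86 and 5.83 in JMJD3 shRNA cells with TGFb, against 5.62, 5.56 and 5.59 in control cells with TGFb. With vehicle they were 5.76, 5.67 and 5.78 in JMJD3 shRNA cells, against 5.50, 5.59 and 5.49 in control cells. The knockdown arrays lay above the control arrays under each treatment, by a small amount. The log2 change was 0.22 ± 0.05 with TGFb (adjusted p = 0.00559) and 0.21 ± 0.05 with vehicle (adjusted p = 0.00763), which is 1.16-fold in each. When arrays were scaled on their median in place of the 75th percentile, Hspa5 no longer passed (log2 change 0.18 with TGFb and 0.22 with vehicle). Within slides the change was 0.17 and 0.26 with TGFb, and 0.26, 0.08 and 0.29 with vehicle. Its probe lies at mm9 chr2:34631913-34631972.

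The other ATP-driven chaperones of the ER did not pass. Hsp90b1 (GRP94), the ER member of the HSP90 family, had log2 levels of 4.98, 5.14 and 5.07 in JMJD3 shRNA cells with TGFb against 4.96, 5.09 and 4.99 in control cells with TGFb. With vehicle Hsp90b1 had 5.12, 4.92 and 5.00 in JMJD3 shRNA cells against 4.98, 4.86 and 5.01 in control cells. The lines overlapped under each treatment, and the 95% interval of the knockdown change of Hsp90b1 ended at 0.19 with TGFb and at 0.21 with vehicle. With quantile normalization between arrays Hsp90b1 passed with vehicle, at 0.17 (adjusted p = 0.0479). Hyou1 (GRP170), which recharges Hspa5 with ATP, ran from -3.04 to -2.89 in JMJD3 shRNA cells with TGFb against -3.13 to -3.00 in control cells with TGFb. With vehicle Hyou1 ran from -3.01 to -2.93 in JMJD3 shRNA cells against -3.09 to -3.02 in control cells. Its knockdown change was 0.09 with TGFb (adjusted p = 0.382) and 0.07 ± 0.07 with vehicle (adjusted p = 0.517). Of the genes with a motif match in the promoter window, Herpud1, Hspa5 and Creld2 passed with knockdown in vehicle, and Hsp90b1 and Calr did not. Of those with a window and no match, Dnajb9 and Pdia4 passed, and Sdf2l1 and Xbp1 did not. A link between matches and changes was not tested.

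Among genes of lectins, oxidoreductases and cofactors, Pdia4 and Creld2 rose with knockdown in vehicle. Pdia4 (ERp72), a protein disulfide isomerase, had log2 levels of 0.90, 1.03 and 1.00 in JMJD3 shRNA cells with vehicle, against 0.60, 0.67 and 0.67 in control cells with vehicle. The change was 0.33 ± 0.08 (adjusted p = 0.0107), and within slides it was 0.29, 0.37 and 0.32. With arrays scaled on their median the change of 0.34 did not pass (adjusted p = 0.0746). With TGFb the levels of Pdia4 were 1.05, 0.80 and 0.78 in JMJD3 shRNA cells, against 0.77, 0.78 and 0.55 in control cells. There the lowest knockdown array and the highest control array met at 0.78, and the change of 0.18 ± 0.08 did not pass (adjusted p = 0.135). With the slide as a fixed block the change of Pdia4 with TGFb was 0.26 (adjusted p = 0.000514), and within slides it was 0.27 and 0.24.

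Creld2, a secreted ER stress protein with disulfide isomerase activity, had log2 levels of 3.56, 3.56 and 3.61 in JMJD3 shRNA cells with vehicle, against 3.27, 3.49 and 3.30 in control cells with vehicle. Its change was 0.22 ± 0.06 with vehicle (adjusted p = 0.016), and within slides it was 0.29, 0.07 and 0.30. With arrays scaled on their median the change of 0.23 did not pass (adjusted p = 0.107). The call also rests in part on single arrays: leaving out control vehicle replicate 1, control vehicle replicate 3 or JMJD3 shRNA vehicle replicate 3 gave changes of 0.18, 0.19 and 0.21 that did not pass (adjusted p = 0.064, 0.068 and 0.06). With TGFb the levels of Creld2 were 3.49, 3.43 and 3.56 in JMJD3 shRNA cells, against 3.48, 3.40 and 3.41 in control cells. Those arrays overlapped, and the change was 0.07 ± 0.06 (adjusted p = 0.458).

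Sdf2l1, a part of the chaperone complex that Hspa5 forms in the ER, had log2 levels of 0.87, 0.89 and 0.94 in JMJD3 shRNA cells with vehicle, against 0.56, 0.80 and 0.75 in control cells with vehicle. The arrays did not overlap, and the change of 0.20 ± 0.07 did not pass (adjusted p = 0.0558). With the slide as a block, fixed or random, the same change of Sdf2l1 passed (adjusted p = 0.0138 and 0.013), and within slides it was 0.31, 0.09 and 0.20. With TGFb Sdf2l1 ran from 0.70 to 0.86 in JMJD3 shRNA cells against 0.70 to 0.86 in control cells. Calr (calreticulin), the lectin that holds glycoproteins until they are folded, had 3.86, 3.90 and 3.95 in JMJD3 shRNA cells with vehicle against 3.67, 3.85 and 3.80 in control cells with vehicle. Its change was 0.13 ± 0.08 (adjusted p = 0.274) with vehicle and 0.12 ± 0.08 with TGFb (adjusted p = 0.313). With the slide as a fixed block Calr passed under each treatment, with changes of 0.20 with TGFb (adjusted p = 0.0049) and 0.13 with vehicle (adjusted p = 0.0223). Within slides the change of Calr was 0.22 and 0.20 with TGFb, and 0.19, 0.05 and 0.15 with vehicle.

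Xbp1, the transcription factor whose mRNA is spliced by IRE1, had log2 levels of 3.47, 3.52 and 3.57 in JMJD3 shRNA cells with TGFb, against 3.58, 3.42 and 3.62 in control cells with TGFb. With vehicle they were 3.50, 3.45 and 3.40 in JMJD3 shRNA cells, against 3.39, 3.52 and 3.31 in control cells. The lines overlapped under each treatment. The change was -0.02 ± 0.06 with TGFb (adjusted p = 0.887) and 0.04 ± 0.06 with vehicle (adjusted p = 0.749). One level per array came from its probe, so the splicing of Xbp1 mRNA was not measured.

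**Figure D2:**
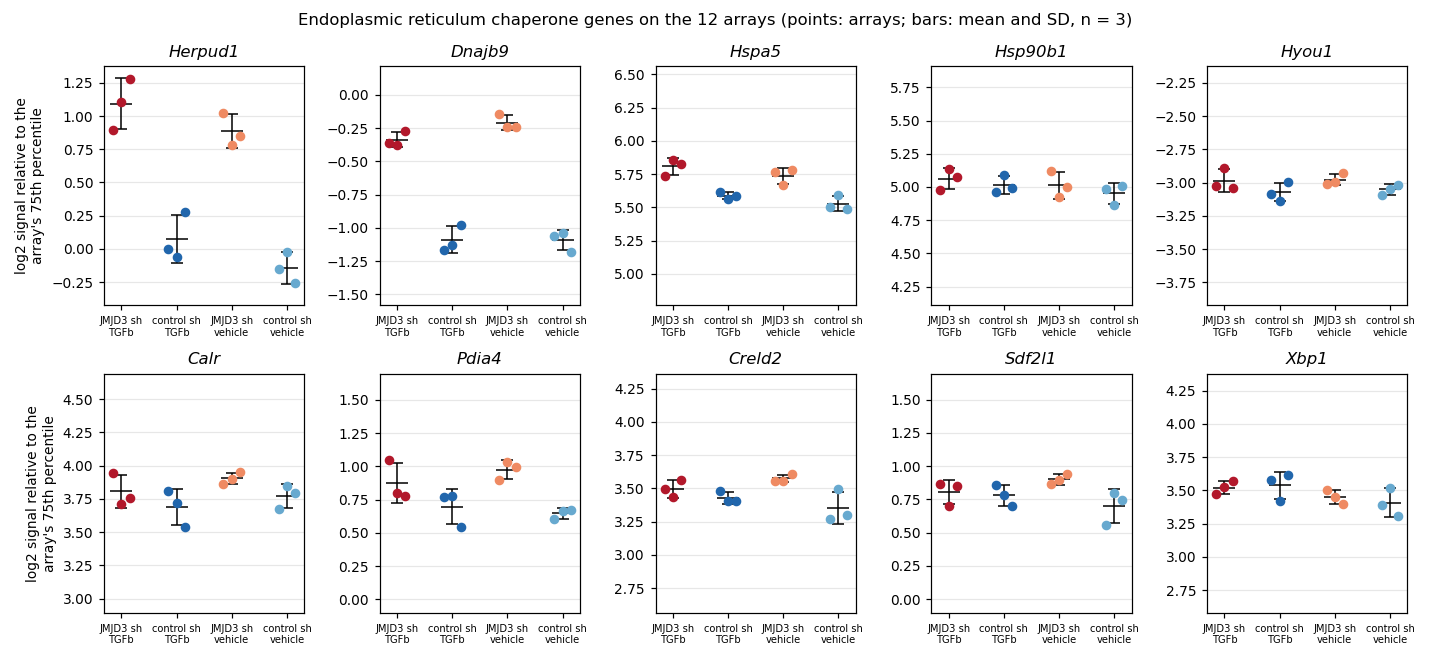
Log2 level of each of the 10 ER chaperone genes on the 12 arrays, relative to the array's 75th percentile, for JMJD3 shRNA cells with TGFb, control cells with TGFb, JMJD3 shRNA cells with vehicle and control cells with vehicle. Points are arrays and bars the mean and SD (n = 3), and all panels span the same range of log2 units. Herpud1 and Dnajb9 separate the lines on all arrays, while the levels of Xbp1 and Hsp90b1 overlap.

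TGFb did not change the chaperone genes past the test in either line. In JMJD3 shRNA cells 0 of the 10 genes passed, where 9.47% of all tested genes did, and in control cells 0 of 10 passed, where 10.1% did. At an unadjusted p under 0.05 the limma fit also called 0 of the 10 in each line. The changes ran from -0.13 (Dnajb9) to 0.20 (Herpud1) in JMJD3 shRNA cells and from -0.08 (Calr) to 0.22 (Herpud1) in control cells. The 95% intervals of all 10 genes lay between -0.28 and 0.46 in JMJD3 shRNA cells and between -0.26 and 0.47 in control cells. Rises beyond 1.37-fold and 1.38-fold lay outside them. The fit behind these and the other intervals leaves out the slide, over which the treatments were not balanced, so they do not cover slide effects. In JMJD3 shRNA cells the 3 TGFb arrays of Dnajb9 and of Sdf2l1 lay below the 3 vehicle arrays, with changes of -0.13 (adjusted p = 0.309) and -0.09 (adjusted p = 0.505). Within slides the change of Herpud1 with TGFb was 0.04 in JMJD3 shRNA cells, where 1 slide held both treatments, and 0.03 and 0.20 in control cells. With estimated array weights, which let arrays count unequally, 2 genes passed in JMJD3 shRNA cells: Herpud1 at 0.34 (adjusted p = 0.026) and Pdia4 at -0.18 (adjusted p = 0.048).

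The difference between the TGFb responses of JMJD3 shRNA cells and control cells passed for 0 of the 10 genes, where 0.0828% of all tested genes passed, and 0 of the 10 had an unadjusted p under 0.05. It ran from -0.18 (Sdf2l1) to 0.01 (Hyou1), and the 95% intervals lay between -0.40 and 0.34. The 5 genes that rose in vehicle and the 3 that rose with TGFb are therefore not shown to differ by treatment: for Creld2 the difference was -0.15 ± 0.08 and for Pdia4 -0.15 ± 0.12, each with an adjusted p of 0.962.

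**Figure D3:**
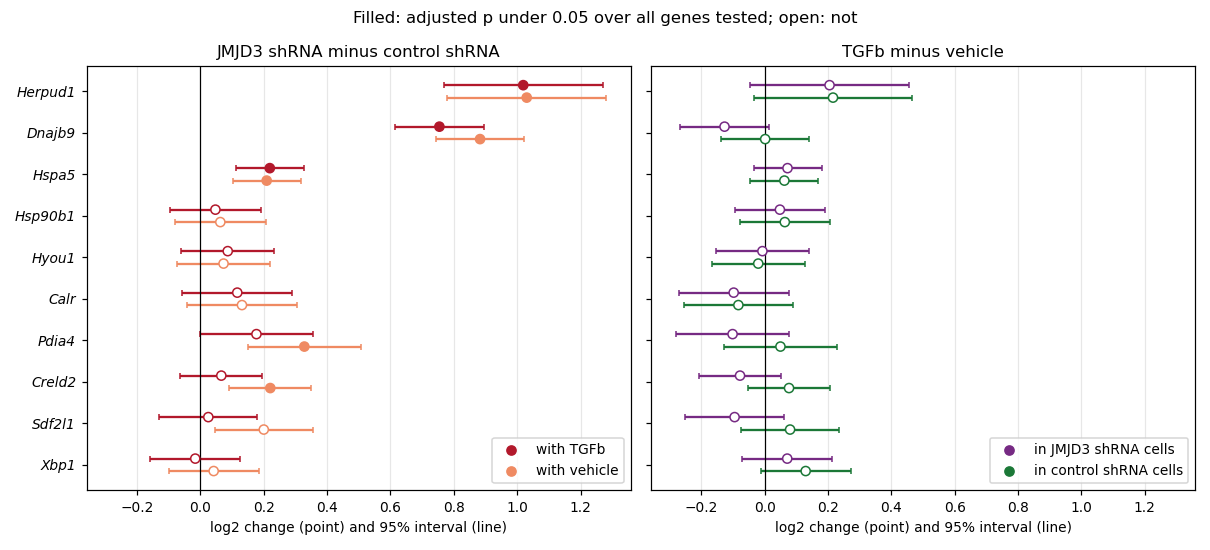
Log2 change (point) and 95% interval (line) of the 10 ER chaperone genes for JMJD3 shRNA minus control shRNA (left) and TGFb minus vehicle (right). Filled points passed an adjusted p of 0.05 over all tested genes. Herpud1, Dnajb9 and Hspa5 are filled under both treatments on the left, and no point is filled on the right.

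The changes were compared with an unfolded protein response through 5 further lists, of which 24 other ER folding genes come nearest to the chaperones. The share of all tested genes that passed with knockdown, in either direction, was 28.9% with TGFb and 27.8% with vehicle, against which the counts of each list are to be read. With knockdown, 6 of these 24 were higher and 1 lower with TGFb (median log2 change 0.06), and 7 were higher and 0 lower with vehicle (median 0.11). These 7 calls of 24 under each treatment are near the share of all genes. Ero1a and Ero1b, the oxidases that recharge disulfide isomerases, rose by 1.07 ± 0.09 and 0.48 ± 0.07 with TGFb and by 0.99 ± 0.09 and 0.51 ± 0.07 with vehicle (highest adjusted p = 0.000262). Pdia5, a disulfide isomerase, rose by 0.37 with TGFb and 0.41 with vehicle (adjusted p = 0.000116 and 5.57e-05). Manf, a secreted protein of the ER lumen, rose by 0.31 with TGFb and 0.34 with vehicle (adjusted p = 0.000931 and 0.000452). Ero1a, Ero1b, Pdia5, Manf and Erp29 passed under both treatments.

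Genes of ER-associated degradation moved both ways. Of 18, 2 were higher and 4 lower with TGFb, and 4 were higher and 4 lower with vehicle, with medians of 0.04 and 0.03. Derl3, a derlin of the channel through which proteins leave the ER, rose by 1.45 ± 0.30 with TGFb and 1.10 ± 0.30 with vehicle (adjusted p = 0.00325 and 0.0167). Its probe was dim, with a mean log2 level of -6.93 over the 12 arrays, though well above background on all 12. Its SD was 0.50 in control cells with TGFb. Herpud2, a relative of Herpud1, rose by 0.44 with TGFb and 0.28 with vehicle (adjusted p = 0.00161 and 0.023). Edem1, which marks glycoproteins for degradation, fell by 0.21 with TGFb and 0.23 with vehicle (adjusted p = 0.0162 and 0.0103). Ufd1, Ube2j1 and Vcp, which ubiquitinate or extract proteins, also fell under both treatments, Ufd1 by 0.39 and 0.33 (adjusted p = 0.00122 and 0.00414). With vehicle and arrays scaled on their median, Herpud2 (adjusted p = 0.0552), Edem1 (0.186), Ufd1 (0.0709) and Ube2j1 (0.0999) did not pass, nor did Edem1 with TGFb (0.111). The vehicle calls of Edem1, Ufd1 and Ube2j1 also ended with normexp and quantile normalization (adjusted p = 0.0616, 0.0535 and 0.0503). They ended with the authors' values as well, and under both settings so did the TGFb call of Edem1 (adjusted p = 0.101 and 0.102). When the kept probes of Ufd1 were averaged, its vehicle change was -0.13 (adjusted p = 0.0739). Herpud2 also lost its call with vehicle without any 1 of 4 of the 6 vehicle arrays (change 0.21 to 0.29). Derl3 did not pass with vehicle when control vehicle replicate 3 or JMJD3 shRNA vehicle replicate 2 was left out (change 0.90 in each, adjusted p = 0.0731 and 0.0699).

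Of 26 genes of translocation, N-glycosylation and vesicle transport, 2 were higher and 4 lower with TGFb and 1 was higher and 2 lower with vehicle, with medians of -0.10 and -0.04. Sec24d, a cargo adaptor of vesicles that leave the ER, rose by 0.62 with TGFb and 0.64 with vehicle (adjusted p = 0.000232 and 0.000204). Rpn1, a subunit of the complex that attaches N-glycans, fell by 0.52 with TGFb and 0.42 with vehicle (adjusted p = 3.57e-05 and 0.000164). Ssr1, a subunit of the translocon-associated complex, fell by 0.35 and 0.36 (adjusted p = 0.000175 and 0.000155).

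Some of the sensors had more mRNA in the knockdown. Of 9 sensors and processing proteases, 5 were higher and 1 lower with TGFb and 3 were higher and 1 lower with vehicle. Eif2ak3, which encodes PERK, had log2 levels of 1.38, 1.38 and 1.38 in JMJD3 shRNA cells with TGFb, against 0.89, 0.86 and 0.96 in control cells with TGFb, a change of 0.48 ± 0.05 (adjusted p = 6.44e-05). With vehicle Eif2ak3 changed by 0.52 ± 0.05 (adjusted p = 3.59e-05). Atf6 rose by 0.84 ± 0.12 with TGFb and 0.75 ± 0.12 with vehicle (adjusted p = 0.000356 and 0.000763). Creb3, a related membrane-bound transcription factor, rose by 0.39 under each treatment. Creb3l2, of the same kind, was the lower gene, by 0.25 with TGFb and 0.33 with vehicle (adjusted p = 0.0244 and 0.00564). With arrays scaled on their median Creb3l2 did not pass (adjusted p = 0.0688 and 0.0511). Creb3l1 rose by 0.29 with TGFb (adjusted p = 0.0399), and it did not pass with that scaling (adjusted p = 0.168). These are mRNA levels, and the cleavage of ATF6 and the phosphorylation of PERK were not measured.

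The genes with the largest changes lay in the PERK, ATF4 and CHOP branch. Of its 16 genes, 5 were higher and 5 lower with TGFb, and 7 were higher and 2 lower with vehicle, with medians of 0.08 and 0.10. Chac1, an enzyme that degrades glutathione, had log2 levels of 0.36, 0.64 and 0.94 in JMJD3 shRNA cells with TGFb, against -1.22, -1.33 and -0.96 in control cells with TGFb. With vehicle Chac1 had 0.78, 0.53 and 0.71 in JMJD3 shRNA cells, against -1.70, -1.19 and -1.90 in control cells. It was 3.52 times the control level with TGFb (log2 change 1.81 ± 0.18, adjusted p = 2.85e-05) and 4.82 times with vehicle (2.27 ± 0.18, adjusted p = 5.1e-06). Trib3, a pseudokinase induced by ATF4 and CHOP, had 0.08, 0.14 and 0.64 in JMJD3 shRNA cells with TGFb, against -1.45, -1.48 and -1.12 in control cells with TGFb. With vehicle Trib3 had 0.66, 0.14 and 0.50 in JMJD3 shRNA cells, against -1.58, -1.33 and -1.86 in control cells. The change was 1.64 ± 0.18 with TGFb (adjusted p = 6.18e-05) and 2.03 ± 0.18 with vehicle (adjusted p = 1.31e-05), larger than that of any of the 10 chaperone genes.

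Ddit3, which encodes CHOP, had log2 levels of -2.23, -2.48 and -2.20 in JMJD3 shRNA cells with TGFb, against -2.47, -2.74 and -2.61 in control cells with TGFb. With vehicle Ddit3 had -1.79, -1.92 and -1.86 in JMJD3 shRNA cells, against -2.67, -2.39 and -2.74 in control cells. The lines were apart with vehicle, where Ddit3 rose by 0.75 ± 0.11 (adjusted p = 0.000352), and overlapped with TGFb, where the change was 0.30 ± 0.11 (adjusted p = 0.0555). With the slide as a fixed block Ddit3 passed with TGFb as well (0.37, adjusted p = 0.0247). Atf3, a stress-induced transcription factor, rose by 0.85 ± 0.14 with TGFb (adjusted p = 0.000891) and 1.37 ± 0.14 with vehicle (adjusted p = 3.13e-05). Atf4, which is controlled mainly at translation, had changes of 0.04 with TGFb (adjusted p = 0.724) and 0.11 ± 0.08 with vehicle (adjusted p = 0.373). When the kept probes of Atf4 were averaged, its change with vehicle was 0.18 and passed (adjusted p = 0.044), so this result depends on the choice of probe. Ppp1r15a (GADD34), the phosphatase subunit that restores translation, had changes of 0.00 with TGFb (adjusted p = 0.994) and -0.05 with vehicle (adjusted p = 0.616).

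Not all targets of ATF4 were higher. Asns and Psat1, enzymes of asparagine and serine synthesis, fell by 0.31 and 0.36 with TGFb (adjusted p = 0.00128 and 0.000222) and by 0.23 and 0.31 with vehicle (adjusted p = 0.00732 and 0.000603). Sesn2, a stress-induced regulator of mTORC1, rose by 0.52 with TGFb and 0.45 with vehicle (adjusted p = 6.16e-05 and 0.000181). Asns, Psat1, Erp29 and Vcp lie outside the rule for named genes, as does Vldlr, which was higher under each treatment: they were chosen after their values were seen, for their calls under both treatments. In the promoter table, CARE matches were present for Asns, Atf3, Chac1, Nupr1, Slc7a11, Trib3 and Vldlr of this branch. These hold genes that were higher and genes that were lower with knockdown.

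**Figure D4:**
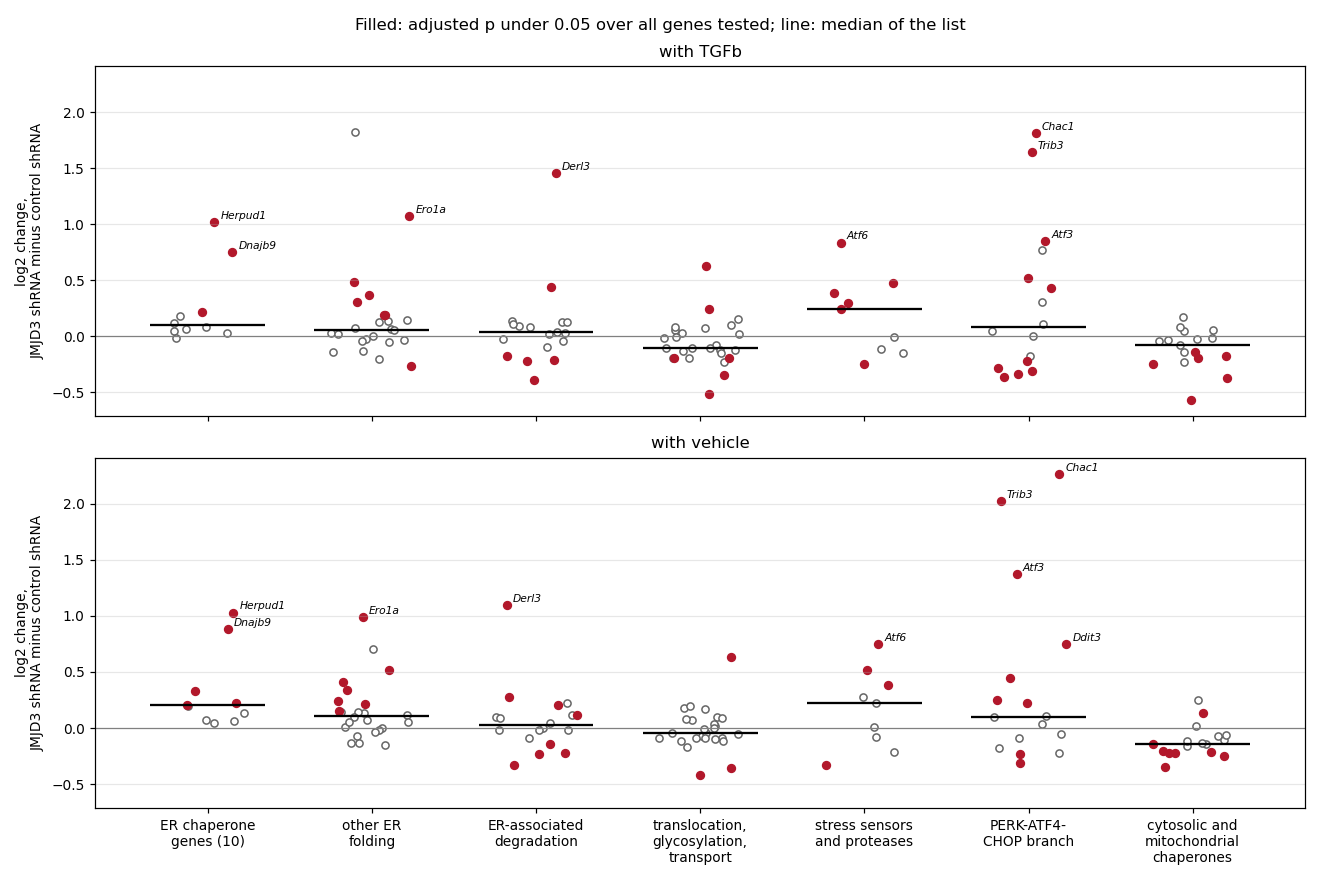
Log2 change with knockdown (JMJD3 shRNA minus control shRNA) of each gene of 7 lists, with TGFb (top) and with vehicle (bottom). Filled points passed an adjusted p of 0.05 over all tested genes, black lines are list medians, and sideways spread only separates points. Chac1 and Trib3 lie above Herpud1 and Dnajb9, and the other 8 chaperone genes lie between -0.02 and 0.33.

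The 10 genes did not move as 1 block. Over the 12 arrays, Pearson r between pairs of them ran from -0.33 to 0.95 with a median of 0.47, and 40 of the 45 pairs were above 0. Herpud1 and Hspa5 (r = 0.95), Herpud1 and Dnajb9 (r = 0.95) and Sdf2l1 and Creld2 (r = 0.88) were the closest pairs. After group means were taken away the median r was 0.04 and 25 of 45 pairs were above 0. Single pairs then ran from -0.87 (Herpud1 and Pdia4) to 0.89 (Pdia4 and Calr), and Herpud1 and Dnajb9 had 0.86. The median likeness over 12 arrays is thus mostly that between groups, while single pairs stayed far from 0 in both directions. These values describe arrays that share slides, and carry no test. Outside the 10 genes, names with the form of a clone or accession name were passed over. Of the rest, those most like the members' mean profile over the 12 arrays were Chac1 (r = 0.993), Manf (r = 0.989), Pcdh9 (r = 0.988), Ccne1 (r = 0.987) and Erich2 (r = 0.987). That profile averages centred levels without scaling them to 1 spread, so Herpud1 and Dnajb9, which changed most between the lines, weigh most in it. Pcdh9, a protocadherin, rose by 0.94 with TGFb and 1.10 with vehicle, and Ccne1, a cyclin of the start of DNA synthesis, by 0.52 and 0.60.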

How the data were processed

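RNA of 12 samples in 4 groups of 3 was hybridised to 1-colour Agilent mouse arrays. Cy3-labelled RNA was made from 500 ng of total RNA after oligo-dT amplification, per the labels' protocols. Agilent Feature Extraction 10.7.3.1 read the scans, probe positions are those of mm9, and, per the file headers, the processed signal of each spot is a background-corrected intensity on a linear scale. The authors also deposited a table of log2 values, used as an alternative. Its 12 columns share a median of 7.93, each matched its own array best, and how its background was corrected and its values centred is not known here.

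Control spots and outlier-flagged spots were left out, spots of a probe were averaged, and log2 values were set against the 75th percentile of their array. A probe was kept where all 3 arrays of a group had it well above background (29972 probes), and the kept probe with the highest mean stood for each gene. Of all probes, 26055 were named by accession through a RefSeq table (GRCm38.p6), and 13374 kept the file's name. The test was limma (version 3.58.1, R 4.3.3; functions lmFit, then contrasts.fit, then eBayes with its trend option), in 1 fit over 12 arrays with 8 residual degrees of freedom, two-sided, with Benjamini-Hochberg adjustment over all genes and a threshold of 0.05. On data simulated for the knockdown with vehicle over 24149 genes, the fit recovered 80% of 100 genes changed by a log2 of 1. It recovered 13% of 100 changed by 0.25, and there were 8 false calls. Far fewer genes changed there than the 6711 called in the real comparison, and the simulated noise was independent between arrays. These shares therefore do not measure how often real changes of those sizes pass.

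The members and lists were chosen with earlier results of these data known. Named were Kdm6b, all members, Atf4, Ddit3, Trib3 and Ppp1r15a, and up to 4 called genes with the largest change per list and comparison. The 5 genes most like the members were also named, with names in the form of a clone or accession name passed over. Hspa1b was not matched. The alternatives were other background corrections, scalings, filters, probe rules, priors, array weights, the slide or replicate as a block, fits of fewer groups, thresholds, the table of the authors, and leaving out arrays in turn.

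The arrays lay on 4 slides scanned on 1 day. A slide held vehicle arrays only and another held TGFb arrays only, so effects of TGFb and of the slide are partly mixed. Arrays of different groups deviated together in 12 of 12 pairs that share a slide, with r from 0.18 to 0.56. Of 18 pairs with the same replicate number 6 did (r from -0.52 to 0.56), and of the 14 of these on different slides 2 did. No pairing by number was thus seen beyond the slide. A pairing that slide effects hide cannot be told from these values.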

Additional observations from a re-analysis of the deposited data

Results flagged for a closer look

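Kdm6b, the targeted gene, moved in opposite directions with TGFb in the 2 lines, which is why it is listed here. Its 3 TGFb arrays lay below the 3 vehicle arrays in JMJD3 shRNA cells (log2 change -0.11 ± 0.05 SE, adjusted p = 0.299) and above them in control cells (0.12 ± 0.05, adjusted p = 0.235). The difference of -0.23 ± 0.08 did not pass in the limma fit over all genes (adjusted p = 0.721).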

How the results depend on the processing

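Over 28 alternatives with a test, Herpud1, Dnajb9 and Kdm6b passed in 28 under each treatment of the knockdown, Hspa5 in 27 under each, and with vehicle Pdia4 in 27 and Creld2 in 24. Array median scaling called 2 members with vehicle, and in all genes 1386 and 1514 for TGFb in JMJD3 shRNA and control cells, 3954 for knockdown with vehicle, and 5 (1 higher, 4 lower) for the difference of responses, against 2288, 2450, 6711 and 20 (11 higher, 9 lower). For that difference, normexp with quantile normalization gave 7 higher and 9 lower, and the authors' values 6 and 9. Estimated array weights called 2 members and 5276 genes for TGFb in JMJD3 shRNA cells, 10586 for knockdown with TGFb (against 6977) and 94 for the difference. With the slide as a fixed or random block, 5 members were called for knockdown with TGFb, and the difference of responses called 43 and 95 genes. The share of all genes called for that knockdown under these blocks is not given here. At an adjusted p under 0.01, 3 members were called with vehicle, and 1391, 1569, 4349, 4561 and 4 genes for TGFb in JMJD3 shRNA cells, TGFb in control cells, knockdown with vehicle, knockdown with TGFb and the difference. Requiring at least 1.5-fold left 2 members with vehicle and 823, 963, 1670 and 1683 genes in the first 4 of these. Centring all arrays on a median change of 0, chosen after seeing the data, left 12 genes for the difference. Leaving out 1 array at a time called 4 to 6 members with vehicle, and 4 to 27 genes for the difference. Hspa4 turned to 0.34 with TGFb and 0.30 with vehicle when its kept probes were averaged, and, with each probe alone, Hspa4 was at 0.55 and Hspa8 at -0.29 with TGFb, because probes of these genes disagree. The causes of the other moves were not tested. The number of arrays limits the precision, with a median SE of 0.102.

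With the replicate block, members called were 0 for TGFb in each line, 3 for knockdown with TGFb and 5 with vehicle, and 11 genes were called for the difference of responses. The block changed no call of a member.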

Other observations

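Of the 17 cytosolic and mitochondrial chaperone genes tested, 2 were higher and 1 lower with TGFb in each line, with medians of 0.07 in JMJD3 shRNA cells and 0.02 in control cells, where 9.47% and 10.1% of all tested genes passed. Hspb1, a small heat shock protein, rose by 0.98 in JMJD3 shRNA cells and by 1.21 in control cells (limma adjusted p = 8.83e-07 and 1.33e-07). Its log2 levels in JMJD3 shRNA cells were -0.98, -1.14 and -0.99 with TGFb, against -2.01, -2.09 and -1.96 with vehicle. In control cells they were -0.55, -0.45 and -0.39 with TGFb, against -1.68, -1.68 and -1.66 with vehicle. Bag3, a co-chaperone of HSP70, rose by 0.94 in JMJD3 shRNA cells and 1.03 in control cells (adjusted p = 2.46e-05 and 1.02e-05). Hspa1a, a stress-induced HSP70, fell by 0.59 in JMJD3 shRNA cells and by 0.51 in control cells (adjusted p = 0.00398 and 0.00987). With knockdown, 0 of the 17 were higher and 6 lower with TGFb, and 1 was higher and 7 lower with vehicle, with medians of -0.08 and -0.14, where 28.9% and 27.8% of all tested genes passed. Hspb1 fell by 0.57 and 0.35 with knockdown (adjusted p = 4.49e-05 and 0.00142) and Hsph1, an HSP110 that recharges HSP70, by 0.37 and 0.25 (adjusted p = 0.00163 and 0.0171). The vehicle call of Hsph1 ended with arrays scaled on their median (adjusted p = 0.165). It also ended without any 1 of control vehicle replicate 2, control vehicle replicate 3 and JMJD3 shRNA vehicle replicate 1 (change -0.23 to -0.20). With arrays scaled on their median, the vehicle calls of Hspa4, Hspa8, Clpp and Lonp1 ended too (adjusted p = 0.121, 0.138, 0.263 and 0.242). So did the TGFb calls of Hspa4, Clpp and Lonp1 (adjusted p = 0.104, 0.091 and 0.13). The same 4 vehicle calls ended with normexp and quantile normalization, where Hspa8 was at -0.01 (adjusted p = 0.938). Probes of Hspa4 and Hspa8 disagree.

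A few genes of the ER lists also changed with TGFb. Creb3l2, a membrane-bound transcription factor related to ATF6, rose by 1.31 ± 0.07 in JMJD3 shRNA cells and 1.23 ± 0.07 in control cells (adjusted p = 2.95e-07 and 4.7e-07). Its log2 levels in JMJD3 shRNA cells were 0.89, 0.85 and 0.72 with TGFb, against -0.45, -0.47 and -0.57 with vehicle. In control cells they were 1.01, 1.13 and 1.06 with TGFb, against -0.05, -0.32 and -0.12 with vehicle. Of the 16 genes of the PERK, ATF4 and CHOP branch, 2 were higher and 3 lower with TGFb in JMJD3 shRNA cells, and 3 were higher and 1 lower in control cells. Cebpb, a transcription factor, rose by 0.44 in JMJD3 shRNA cells and 0.55 in control cells (adjusted p = 0.022 and 0.00507). In JMJD3 shRNA cells Cebpb lost its call with the slide as a fixed block (0.36, adjusted p = 0.0949), with arrays scaled on their median (0.40, adjusted p = 0.092), and without any 1 of 5 of the 6 arrays of these cells (0.39 to 0.46). Nupr1, a stress-induced nuclear protein, and Stc2, a secreted glycoprotein, rose by 0.47 and 0.44 in control cells (adjusted p = 0.00344 and 0.000252). Their changes of 0.05 and 0.18 in JMJD3 shRNA cells did not pass (adjusted p = 0.817 and 0.0694). The difference between the lines did not pass for Nupr1 (-0.43 ± 0.12, adjusted p = 0.489) or Stc2 (-0.26 ± 0.08, adjusted p = 0.643). With the slide as a fixed block Stc2 passed in JMJD3 shRNA cells as well (0.24, adjusted p = 0.0259). TGFb lowered Atf3 by 0.81 (adjusted p = 0.00295), Slc7a11 by 0.54 (adjusted p = 0.000333) and Ddit3 by 0.45 (adjusted p = 0.0224) in JMJD3 shRNA cells. The change of Ddit3 was -0.36 with the slide as a fixed block and did not pass (adjusted p = 0.163), nor did it pass without JMJD3 shRNA vehicle replicate 1 (-0.42), JMJD3 shRNA vehicle replicate 3 (-0.45) or JMJD3 shRNA TGFb replicate 2 (-0.36). Slc7a11, the cystine carrier, also fell in control cells, by 0.35 (adjusted p = 0.0071), where Ddit3 had a change of 0.00. For Ddit3 the difference between the lines was -0.44 ± 0.15 and did not pass (adjusted p = 0.792).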
